A study of Homo sapiens with 6 samples.

Results

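The genes described here are 6 genes of DNA mismatch repair, MSH3, MSH6, MLH3, PMS1, PMS2 and EXO1, chosen by symbol among the 63152 genes counted in A549, an established human cell line of lung adenocarcinoma origin. All 6 were found on the reference chromosomes, and all 6 passed the filter on low counts. The cells were reverse transfected with DharmaFECT1 and siRNA at 10 nM, and RNA was taken after 72 hours. One group received an siGENOME SMARTpool against RPS19, the gene of a small-subunit ribosomal protein (siRPS19), and the other ONTARGETplus non-targeting control siRNA (siOTP). There were 3 biological replicates in each group. The reagents belong to different product lines, so siRNA chemistry and target cannot be told apart.

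Mismatch repair removes wrongly paired bases and small loops left behind by the replication fork. A MutS complex finds the error: MSH6 distinguishes the complex for single mismatches and very short loops, MSH3 the one for longer loops. A MutL complex then acts on the DNA: PMS2 carries the endonuclease that cuts the new strand in somatic cells, MLH3 also serves meiotic crossing over, and the role of PMS1 in repair is less well defined. EXO1 is the exonuclease that removes the stretch with the error, after which a polymerase refills the gap and a ligase seals it. These libraries measure mRNA and neither protein nor repair.

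The libraries held 20814110 to 23889372 counts on genes. RPS19 itself had 30731, 27124 and 30387 counts in siOTP and 1159, 830 and 1073 in siRPS19, a 35.3-fold lower level after scaling. All 7 markers of A549 and of epithelium had at least 1 CPM (the count scaled to library size) in every siOTP library. Their summed level was 17145 to 18207 CPM in siOTP and 10499 to 11419 CPM in siRPS19, and its part in the results was not tested. Of the 8 markers of leukocytes, endothelium and fibroblasts that could be matched, 7 stayed under 1 CPM in every library and CD3E had no count. The summed level of these 8 was 32.3 to 40.0 CPM in siOTP and 14.9 to 20.5 CPM in siRPS19, nearly all of it COL1A1, and its part in the results was not tested.

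All 6 genes were lower after RPS19 siRNA on the TMM scale, which sets the libraries level on the bulk of genes, but by very different amounts. EXO1 fell 44.5-fold and MSH6 4.24-fold, PMS1 1.79-fold and PMS2 1.40-fold, while MSH3 and MLH3 were lower by 1.21-fold and 1.19-fold. The fall of EXO1, MSH6, PMS1 and PMS2 passed under every scaling tried, whereas MSH3 and MLH3 did not pass with library totals or upper-quartile factors, so that 4 of the 6 were lower there. The count of 6 lower and 0 higher genes stands against a table in which 38.9% of 17171 tested genes were lower and 39.5% higher, 78.3% in either direction (edgeR's quasi-likelihood test, adjusted p under 0.05). The median log2 fold change was -0.66 over the 6 genes and 0.02 over all tested genes. Of the 6, 2 passed and were at least 2-fold lower, as were 12.4% of tested genes. The groups did not overlap for any of the 6, as for 79.7% of tested genes. In bulk RNA, fewer cells expressing a gene and less RNA per cell cannot be told apart.

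**Figure D1:**
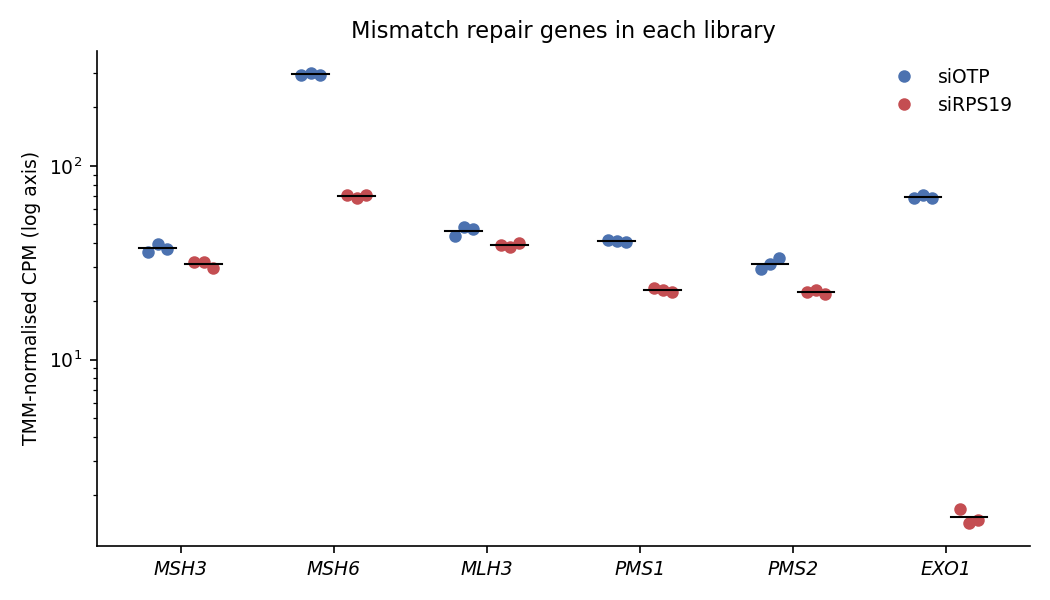
TMM-normalised CPM (log axis) of the 6 mismatch repair genes in each of the 3 siOTP and 3 siRPS19 libraries; points are libraries and lines are group means. EXO1 separates most widely, at 68.0 to 70.8 CPM against 1.43 to 1.69 CPM, and MSH3 and MLH3 least.

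MSH6 (ENSG00000116062, chromosome 2, 47922669 to 48037240, plus strand, hg19) was the most abundant of the 6 per kilobase. Its counts were 6107, 5932 and 5717 in siOTP and 1830, 1581 and 1701 in siRPS19, or 293, 300.5 and 295 CPM against 70.4, 68.6 and 70.4 CPM. Every siRPS19 library lay far below every siOTP library, and the libraries within a group lay close together. The mean went from 296 ± 3.93 to 69.8 ± 1.06 CPM (SD, n = 3 each), or -2.08 in log2 fold change (SE 0.04, edgeR quasi-likelihood adjusted p = 1.02e-20). The annotated interval overlaps FBXO11, which encodes an F-box protein of a ubiquitin ligase, on the other strand over 20786 bases. FBXO11, whose own call is edgeR adjusted p = 3.95e-08, fell 1.32-fold, with 113 ± 2.95 CPM in siOTP and 86.3 ± 3.44 CPM in siRPS19 (SD, n = 3 each). Its log2 fold change was -0.40, against -0.11 with library totals (adjusted p = 0.029 in edgeR) and -0.22 with upper-quartile factors. The kit is not stated to mark strand, so reads from shared exons cannot be assigned. The values of both MSH6 and FBXO11 carry that uncertainty. There were 2.51, 2.66 and 2.66 MSH6 counts per FBXO11 count in siOTP and 0.811, 0.767 and 0.852 in siRPS19, a 3.22-fold lower ratio with no overlap (exact two-sided permutation p = 0.1, 0.106 adjusted).

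MSH3 (ENSG00000113318, chromosome 5, 79950467 to 80172279, plus strand, hg19) had 753, 778 and 722 counts in siOTP and 828, 731 and 715 in siRPS19. These raw counts overlap between the groups. On the TMM scale they became 36.1, 39.4 and 37.2 CPM against 31.9, 31.7 and 29.6 CPM, which do not. The mean went from 37.6 ± 1.67 to 31.0 ± 1.27 CPM (SD, n = 3 each), or -0.28 in log2 fold change (SE 0.06, edgeR quasi-likelihood adjusted p = 0.000185). Scaled by library totals alone, the log2 fold change was 0.01 (adjusted p = 0.87 in edgeR), and with upper-quartile factors -0.10 (adjusted p = 0.11). MSH3 is listed at 7.21 RPKM for siOTP and 7.26 for siRPS19 in the authors' deposited table.

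The balance of the MutS genes can be read without any scaling, as the ratio of their counts within a library. There were 8.11, 7.62 and 7.92 MSH6 counts per MSH3 count in siOTP and 2.21, 2.16 and 2.38 in siRPS19. The groups stood apart, and the ratio was 3.50-fold lower after RPS19 siRNA (two-sided p = 0.1 by exact permutation, the lowest value 3 libraries against 3 can give, and 0.106 adjusted over the 19 ratios tested). Per kilobase of the transcript lengths in the authors' table, the level of MSH6 was 4.69 to 4.99 times that of MSH3 in siOTP and 1.33 to 1.46 times in siRPS19. MSH6 remained the higher of the pair in all 6 libraries.

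Among the MutL genes, PMS1 (ENSG00000064933, chromosome 2, 190649107 to 190742355, plus strand, hg19) changed most. It measured 41.3, 40.9 and 40.2 CPM in siOTP and 23.3, 22.9 and 22.2 CPM in siRPS19, from 862, 808 and 780 counts against 606, 528 and 537. The groups were separated by several times the spread within either. The mean went from 40.8 ± 0.567 to 22.8 ± 0.550 CPM (SD, n = 3 each), or -0.84 in log2 fold change (SE 0.06, edgeR quasi-likelihood adjusted p = 1.44e-11). No annotated gene overlaps PMS1 in the authors' table.

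PMS2 (ENSG00000122512, chromosome 7, 6012870 to 6048756, minus strand, hg19) measured 29.2, 31.3 and 33.3 CPM in siOTP and 22.3, 22.8 and 21.8 CPM in siRPS19, from 609, 618 and 645 counts against 580, 526 and 528. The siOTP libraries were spread more widely than the siRPS19 libraries, and all 3 lay above them. The mean went from 31.3 ± 2.03 to 22.3 ± 0.481 CPM (SD, n = 3 each), or -0.48 in log2 fold change (SE 0.06, edgeR quasi-likelihood adjusted p = 6.01e-07). With library totals it was -0.20 (adjusted p = 0.0072 in edgeR) and with upper-quartile factors -0.31.

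PMS2 has near-identical partial copies on the same chromosome, and the labels do not say how reads that match several of them were counted. The deposited counts have a separate entry for reads without a unique alignment, whose size was not examined. PMS2CL, a transcribed pseudogene of the 3′ part of PMS2, had 424, 427 and 380 counts in siOTP and 565, 441 and 463 in siRPS19. At 20.5 ± 1.03 and 20.0 ± 1.5 CPM (SD, n = 3 each) its groups overlapped, with a log2 fold change of -0.03 and a 95% interval of -0.19 to 0.12 (adjusted p = 0.67 in edgeR). Of 9 copies named after PMS2, 6 were tested, of which PMS2P1 fell 1.55-fold (adjusted p = 0.000782 in edgeR) and 5 did not pass, where 38.9% of all tested genes were lower and 78.3% passed in either direction. PMS2 held 47.2%, 47.6% and 52.9% of the counts on PMS2 and its copies in siOTP and 41.5%, 44.6% and 43.5% in siRPS19. Summed, PMS2 and its copies went from 63.5 ± 1.99 to 51.7 ± 1.86 CPM (SD, n = 3 each), a log2 difference of -0.30 (two-sided p = 0.1 by exact permutation, the lowest that can occur). The log2 fold change of PMS2 alone was thus larger than that of the sum, and its size carries this uncertainty.

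MLH3 (ENSG00000119684, chromosome 14, 75480467 to 75518235, minus strand, hg19) had 904, 955 and 916 counts in siOTP and 1018, 880 and 961 in siRPS19, which overlap. On the TMM scale these were 43.4, 48.4 and 47.2 CPM against 39.2, 38.2 and 39.8 CPM, with the groups apart. The mean went from 46.3 ± 2.63 to 39.0 ± 0.810 CPM (SD, n = 3 each), or -0.25 in log2 fold change (SE 0.05, edgeR quasi-likelihood adjusted p = 0.000308). With library totals it was 0.04 (adjusted p = 0.51 in edgeR) and with upper-quartile factors -0.07 (adjusted p = 0.22). In the authors' deposited table MLH3 had a group RPKM of 5.00 for siOTP and 5.14 for siRPS19.

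**Figure D2:**
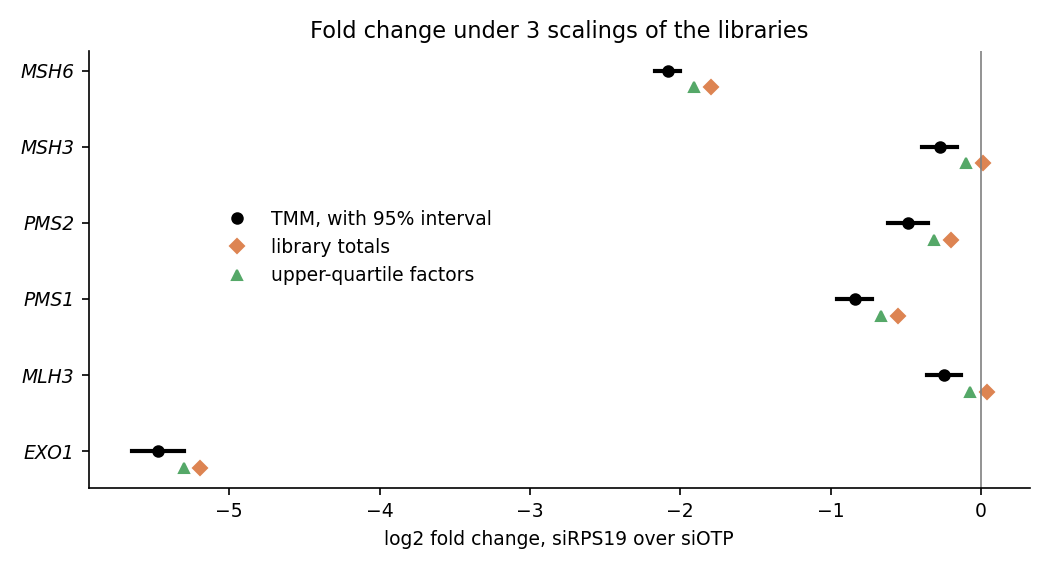
Log2 fold change (siRPS19 over siOTP) of each mismatch repair gene with TMM factors and 95% interval (black), library totals (orange) and upper-quartile factors (green). Another scaling moves every gene by a similar amount, which brings MSH3 and MLH3 near zero (0.01 and 0.04 with library totals) and leaves EXO1, MSH6, PMS1 and PMS2 below it.

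Library totals moved all tested genes upward, by 0.29 in the median log2 fold change, and upper-quartile factors by 0.17, so the changes of MSH3 and MLH3 are about the size of the choice of scale. On library totals 65.8% of called genes were higher, against 50.4% with TMM factors. There were 0.833, 0.815 and 0.788 MSH3 counts per MLH3 count in siOTP and 0.813, 0.831 and 0.744 in siRPS19, and the groups overlapped (mean log2 difference -0.03, exact two-sided permutation p = 0.6). Of the 15 pairs among the 6 genes this was the pair whose groups overlapped. The other 14 did not, as is so for 78.1% of all pairs of tested genes with counts in every library.

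EXO1 (ENSG00000174371, chromosome 1, 242011269 to 242058450, plus strand, hg19) stood second of the 6 per kilobase in siOTP and last in siRPS19. It had 1421, 1397 and 1318 counts in siOTP and 44, 33 and 36 in siRPS19, or 68.2, 70.8 and 68.0 CPM against 1.69, 1.43 and 1.49 CPM. The transcript was still detected in each siRPS19 library, far below its level in any siOTP library. The mean went from 69.0 ± 1.56 to 1.54 ± 0.137 CPM (SD, n = 3 each), or -5.48 in log2 fold change (SE 0.08, edgeR quasi-likelihood adjusted p = 4.27e-22). Only 0.320% of tested genes, or 55, had a lower log2 fold change than EXO1. For MSH6 the share was 2.99%, for PMS1 16.1%, for PMS2 27.9%, for MSH3 36.8% and for MLH3 38.1%.

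Within libraries EXO1 was lower against each of the other 5 genes. Its groups did not overlap in any of these ratios, as is so for 78.1% of all pairs of tested genes with counts in every library. The smallest change was against MSH6, with 4.25 to 4.34 MSH6 counts per EXO1 count in siOTP and 41.6 to 47.9 in siRPS19, a 10.6-fold difference. The largest was against MLH3, where the ratio changed 37.9-fold. Each of these ratios had an exact two-sided permutation p = 0.1 (0.106 adjusted over the 19 ratios).

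Compared per kilobase of the table's transcript length, the order of levels in siOTP was MSH6 at 38.7 ± 0.513 CPM per kilobase, EXO1 at 16.7 ± 0.377, MSH3 at 7.98 ± 0.355, PMS2 at 7.94 ± 0.515, PMS1 at 7.93 ± 0.110 and MLH3 at 5.54 ± 0.314 (SD, n = 3 each). The values of MSH3, PMS2 and PMS1 did not differ beyond their spread. In siRPS19 the order was MSH6 at 9.11 ± 0.138, MSH3 at 6.59 ± 0.269, PMS2 at 5.67 ± 0.122, MLH3 at 4.67 ± 0.0970, PMS1 at 4.43 ± 0.107 and EXO1 at 0.371 ± 0.0331 CPM per kilobase (SD, n = 3 each). Here neighbours in the order did not overlap, although MLH3 and PMS1 came close, at 4.56 for the lowest MLH3 library and 4.52 for the highest PMS1 library. The middle of this order depends on the length used. With the longest principal transcript of GENCODE 29, PMS1 stood at 12.7, PMS2 at 10.9 and MSH3 at 9.19 CPM per kilobase in siOTP. In siRPS19 PMS2 then stood at 7.82, MSH3 at 7.59, PMS1 at 7.07 and MLH3 at 4.94 CPM per kilobase, so that PMS2 came before MSH3 and PMS1 before MLH3. MSH6 and EXO1 kept the first and last place there.

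PMS1 and PMS2 each begin close to a gene read from the opposite strand, and the annotated start region of each overlaps that of its neighbour. Whether the shared stretch acts on both genes was not tested. The pairs behaved differently. PMS1 starts 10 bases from ORMDL1, whose protein restrains sphingolipid synthesis. ORMDL1 rose 1.21-fold (edgeR adjusted p = 3.30e-05), with 42.0 ± 0.554 CPM in siOTP and 50.7 ± 1.5 CPM in siRPS19 (SD, n = 3 each), where PMS1 fell. The PMS1 to ORMDL1 count ratio was 0.998, 0.977 and 0.945 in siOTP and 0.460, 0.464 and 0.425 in siRPS19, a 2.16-fold difference with no overlap. PMS2 starts 120 bases from AIMP2, a scaffold of the aminoacyl-tRNA synthetase complex. AIMP2 fell 1.60-fold (edgeR adjusted p = 2.32e-09), with 37.0 ± 2.39 CPM in siOTP and 23.1 ± 0.510 CPM in siRPS19 (SD, n = 3 each). The PMS2 to AIMP2 ratio was 0.822, 0.879 and 0.838 in siOTP and 0.973, 1.01 and 0.925 in siRPS19. This pair differed less from its control proportion, by 1.14-fold, and its groups too did not overlap. Groups stood apart in the same way for 78.1% of all pairs of tested genes with counts in every library. The exact two-sided permutation p was 0.1 for both ratios (0.106 adjusted).

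**Figure D3:**
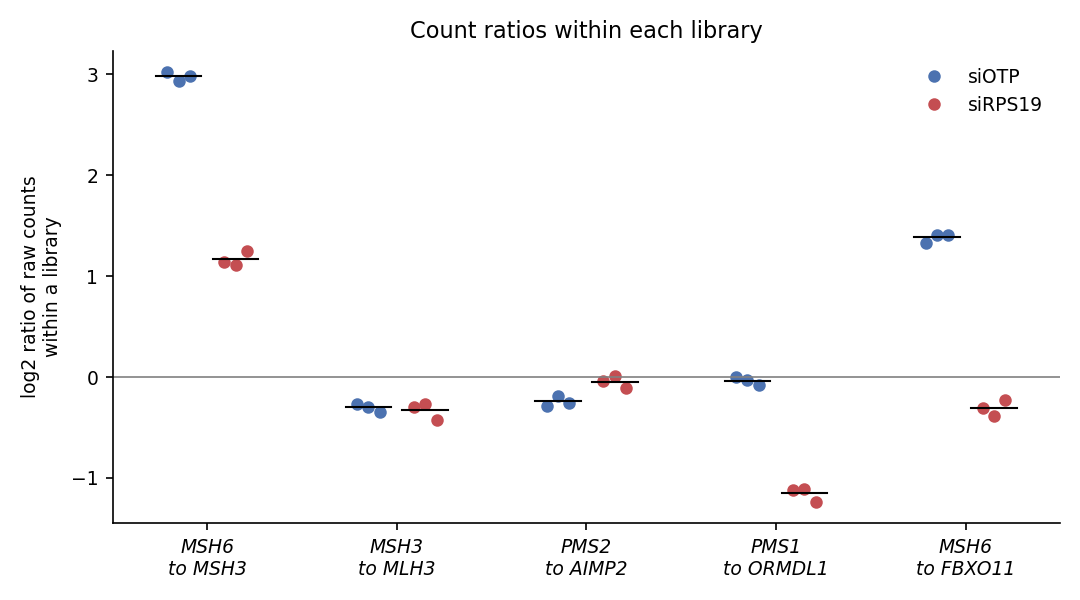
Log2 ratio of raw counts within each library for 5 gene pairs; points are the 3 siOTP and 3 siRPS19 libraries and lines are group means. MSH3 to MLH3 overlaps between groups, PMS2 to AIMP2 is higher in siRPS19, and MSH6 to MSH3, PMS1 to ORMDL1 and MSH6 to FBXO11 are lower in siRPS19.

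Start regions from RefSeq (GRCh38.p14, 250 bases before to 50 after each start) were found for all 6 genes. A word of the E2F type occurs in those of MSH3, EXO1, MSH6 and PMS2. It was sought because E2F factors are known to drive many genes of DNA replication. The region of MSH3 is not shown. The words searched were TTTCCCGC, TTTCGCGC, TTTGCCGC and TTTGGCGC on both strands, and capitals mark each match. The first listed window of each of EXO1, MSH6 and PMS2 is printed, 5′ to 3′ along the gene.

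EXO1 (chr1:241847954-241848253, plus strand): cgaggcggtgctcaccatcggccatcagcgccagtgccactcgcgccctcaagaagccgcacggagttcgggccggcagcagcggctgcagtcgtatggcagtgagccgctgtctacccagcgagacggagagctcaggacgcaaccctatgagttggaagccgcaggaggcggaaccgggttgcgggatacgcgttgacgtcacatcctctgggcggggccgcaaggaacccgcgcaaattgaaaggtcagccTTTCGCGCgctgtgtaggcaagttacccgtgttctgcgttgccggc
MSH6 (chr2:47782895-47783194, plus strand): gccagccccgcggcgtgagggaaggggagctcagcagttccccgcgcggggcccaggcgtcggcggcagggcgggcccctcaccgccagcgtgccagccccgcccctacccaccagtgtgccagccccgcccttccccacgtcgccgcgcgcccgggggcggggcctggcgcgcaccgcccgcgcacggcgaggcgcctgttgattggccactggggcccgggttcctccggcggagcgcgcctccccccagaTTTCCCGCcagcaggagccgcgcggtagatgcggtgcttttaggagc
PMS2 (chr7:6009057-6009356, minus strand): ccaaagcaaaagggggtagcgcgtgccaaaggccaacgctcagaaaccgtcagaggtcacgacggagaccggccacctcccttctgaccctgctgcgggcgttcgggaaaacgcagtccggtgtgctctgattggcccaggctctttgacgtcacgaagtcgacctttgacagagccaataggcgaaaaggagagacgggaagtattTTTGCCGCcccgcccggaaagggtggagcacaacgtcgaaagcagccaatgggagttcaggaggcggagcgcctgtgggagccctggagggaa

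An E2F-type word was present for 4 of the 6 genes, in 5 of their 11 windows, of which 2 are overlapping PMS2 windows with the same word, against 3.31% of all 35116 windows of this length. In EXO1 and MSH6 it lay just inside the start, at positions 5 and 4 counted from the start as 1. For MSH6 this RefSeq start lies nearer to FBXO11 than the start of the hg19 interval given above. In PMS2 the match began at position -43, in the stretch of 265 bases that the window shares with that of AIMP2. In MSH3 matches began at positions -107 and -103. Matches were thus present in EXO1 and MSH6, which changed most, in PMS2, which fell 1.40-fold, and in MSH3, which was lower by 1.21-fold. None was present in PMS1, which fell 1.79-fold, or in MLH3, which was lower by 1.19-fold. The words TTTGAA and TTCGAA of the cell cycle homology region type were in no window of the 6 genes (16.4% of all windows). CCAAT was in those of MSH6, PMS1 and PMS2 (34.6% of all windows). These are matches of letters, not measured binding.

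Of 21 further genes of the pathway, 20 were tested, and 17 fell and 3 rose, where 38.9% of all tested genes were lower and 39.5% higher. Their median log2 fold change was -1.05, against 0.02 over all tested genes, and the groups did not overlap for 19, as for 79.7% of all tested genes. MSH4, a meiotic MutS homologue, had at most 4 counts in any library and was not tested. The subunits of the clamp loader RFC, which places the PCNA ring on DNA, fell throughout. RFC3 fell 10.1-fold, with 90.6 ± 1.69 CPM in siOTP and 9.00 ± 0.703 CPM in siRPS19, and RFC1 2.04-fold, with 92.1 ± 2.70 CPM in siOTP and 45.0 ± 1.78 CPM in siRPS19 (SD, n = 3 each). RFC5, RFC4 and RFC2 lay between them at 6.32-fold, 5.69-fold and 4.41-fold. The ring itself differed little. PCNA had 426, 436 and 451 CPM in siOTP and 366, 395 and 407 CPM in siRPS19, or -0.17 in log2 fold change (SE 0.04, edgeR adjusted p = 0.00149). With library totals PCNA was instead higher by 0.12 (adjusted p = 0.029 in edgeR), and with upper-quartile factors its value was 0.00 (adjusted p = 0.92).

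The genes of replication protein A, which coats the exposed single strand, fell 1.69-fold (RPA1), 1.80-fold (RPA2) and 2.31-fold (RPA3). DNA polymerase delta, which refills the gap, was split. Its catalytic subunit gene POLD1 fell 5.03-fold, with 149 ± 5.63 CPM in siOTP and 29.7 ± 1.14 CPM in siRPS19 (SD, n = 3 each), POLD3 fell 3.59-fold and POLD2 2.10-fold. POLD4, the smallest subunit, rose 1.90-fold, from 12.4, 12.4 and 11.4 CPM to 22.9, 23.8 and 22.3 CPM (adjusted p = 2.82e-10 in edgeR). LIG1, the ligase that seals the strand, had 114, 117 and 107 CPM in siOTP and 122, 120 and 122.9 CPM in siRPS19, or 0.11 in log2 fold change (SE 0.04, edgeR adjusted p = 0.018). That call was lost without siOTP replicate 1 (0.10, adjusted p = 0.077) or siOTP replicate 3 (0.06, adjusted p = 0.20), without replicate 1 (0.13, adjusted p = 0.056) or replicate 3 (0.07, adjusted p = 0.21) of both groups, with no filter on low counts (0.06, adjusted p = 0.31), and with DESeq2 (0.09, adjusted p = 0.20). With library totals it was 0.40.

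Among accessory genes, CHAF1A, a subunit of the histone chaperone that repacks new DNA, fell 14.0-fold, with 68.9 ± 1.47 CPM in siOTP and 4.91 ± 0.403 CPM in siRPS19 (SD, n = 3 each). HMGB1, a chromatin protein, fell 3.54-fold. MCM9, a helicase, fell 1.42-fold, and SETD2, the methyltransferase whose histone mark is bound by MSH6, fell 1.39-fold. FAN1, a nuclease that binds MutL, rose 1.49-fold, from 29.4, 31.1 and 31.3 CPM to 44.6, 46.2 and 45.6 CPM (adjusted p = 3.55e-09 in edgeR). The meiotic homologue MSH5 was near the limit of measurement, at 48 to 87 counts a library, with groups that overlapped. Its log2 fold change was -0.45 ± 0.19 (SE, adjusted p = 0.038 in edgeR), and it did not pass without siOTP replicate 2 (-0.26, adjusted p = 0.26), siRPS19 replicate 2 (-0.35, adjusted p = 0.12) or siRPS19 replicate 3 (-0.39, adjusted p = 0.11), or without replicate 2 of both groups (-0.14, adjusted p = 0.55). In all it did not pass in 10 of 17 alternatives.

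**Figure D4:**
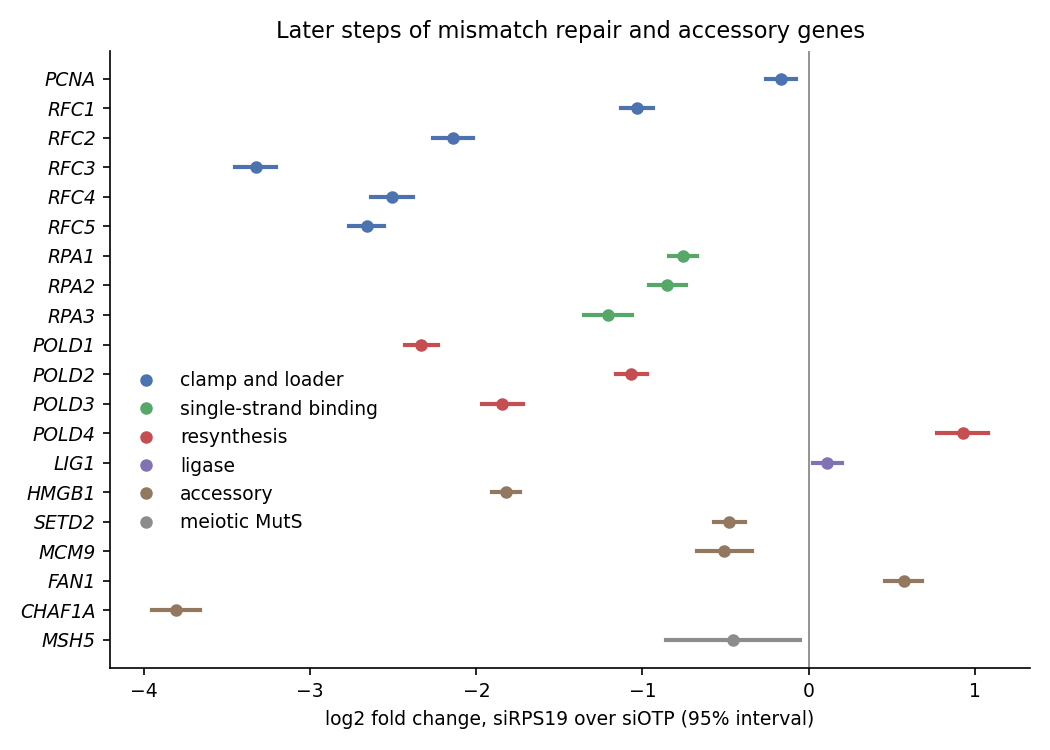
Log2 fold change (siRPS19 over siOTP, TMM scale, bars are 95% intervals) of the 20 tested genes of later steps and accessory functions, coloured by role. RFC3 and CHAF1A lie farthest left (-3.33 and -3.81), PCNA and LIG1 near zero, and POLD4 and FAN1 to the right (0.93 and 0.57).

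The genes with the most similar profile were sought by the root mean square difference of centred log2 CPM over the 6 libraries, among 11474 genes with a mean of at least 5 CPM. For EXO1 these were TOP2A, a DNA topoisomerase of dividing cells (0.053), PRC1, of the spindle midzone (0.054), and KIAA0101, whose protein binds PCNA (0.057), and 9 genes lay within 0.1. For MSH6 they were FBL, fibrillarin of the nucleolus (0.031), TSN (0.032) and ODF2 (0.033), with 70 genes within 0.1. The smaller changes were shared by many more genes, 951 within 0.1 of PMS1, 1208 of PMS2, 1253 of MLH3 and 1283 of MSH3. Their nearest were the kinase gene PAK2 for PMS1 (0.015), the chaperone gene HSPA13 for PMS2 (0.011), L3HYPDH for MSH3 (0.021) and AC098614.2 for MLH3 (0.020), followed by the repressor gene ZEB1 (0.024). These likenesses rest on 6 libraries in 2 groups, and describe the profiles only.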

How the data were processed

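RNA-seq libraries of 3 siOTP and 3 siRPS19 samples, biological replicates per the labels, were analysed. Per the submitters' processing notes, TopHat2 (2.0.8b), HTSeq, DESeq and R (3.0.2) were used with build hg19. Neither annotation release, counting mode nor strand setting is given in the labels. Raw read counts per Ensembl gene and library were deposited by the authors, as was a table with 1 RPKM value per group, which was used for description and 1 alternative. Its symbols, hg19 coordinates and transcript lengths were used. Another 6 columns of counts without replicate labels were not used. The 5 entries that name no gene were left out (reads outside genes, 3.39% to 3.85% of all counts in siOTP and 5.13% to 6.36% in siRPS19; ambiguous reads, 7.50% to 8.24%).

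Genes were filtered with filterByExpr (minimum count 10, minimum total 15) in edgeR 4.0.16 under R 4.3.3, scaled with TMM factors and tested over all 17171 genes with the robust quasi-likelihood test and Benjamini-Hochberg adjustment at 0.05. The procedure was also run on simulated data in which only a small share of genes was changed. In the libraries here most genes were called, so that run cannot check the scaling or the calls that depend on it. TMM-normalised CPM are printed. Standard errors were derived from each log2 fold change and its F value. Ratios of raw counts within a library were compared by exact permutation. DESeq2 1.42.0 and limma 3.58.1 (voom) were alternatives, as were 3 scalings, 2 filters, a replicate block and leaving out libraries.

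The replicate pairs of a group differed by more than sampling noise (chi-square per degree of freedom 4.40 to 16.6). Same-numbered libraries of both groups share a date in the labels, which pairs them; their deviations from the group means correlated across genes at 0.055, -0.095 and 0.045.

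The genes, lists and tests were chosen with earlier results of these data known. Named whatever their result are the 6 genes, RPS19, the pathway list, the neighbours and the PMS2 copies, and the 3 genes of most similar profile per gene could be named. The lengths of GENCODE 29 and the sum of PMS2 with its copies were added after the values were seen. Of the 19 ratios over which p-values were adjusted, 1 is not reported here.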

Additional observations from a re-analysis of the deposited data

How the results depend on the processing

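EXO1, MSH6, PMS1 and PMS2 were called lower under all 17 alternatives with a test, at -5.55 to -5.19, -2.14 to -1.80, -0.89 to -0.55 and -0.55 to -0.20 on the log2 scale. The number of the 6 genes called lower was 6 in all of them except library totals and upper-quartile factors, where it was 4, since MSH3 and MLH3 did not pass. MSH3 and MLH3 turned to 0.0108 and 0.0400 with library totals and to 0.00997 and 0.0398 as the log2 ratio of the authors' group RPKM. PCNA turned to 0.12 with library totals and 0.0048 with upper-quartile factors. The pathway list gave 15 to 17 lower and 2 to 4 higher genes. With the replicate block, 6 of the 6 genes were lower, 17 pathway genes were lower and 3 higher, and 13484 genes were called in all against 13451 without it, and it changed no call among the 6 genes, the pathway list, the neighbouring genes or the PMS2 copies. In a sign-flip test of the pairs, the 3 within-pair differences had the same sign for 14 of 15 ratios between the 6 genes, but 3 pairs cannot give a p below 0.25. The number of these ratios whose groups did not overlap was 14 of 15, where 78.1% of all pairs of tested genes did not. It was also 14 with 0.5 added to each count. Without each library in turn it was 14 as well, but leaving out a library cannot make separate groups overlap, so that is no check. Precision is limited by depth for EXO1 in siRPS19 (33 to 44 counts) and for MSH5.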
